A study of Mus musculus with 6 samples.

Results

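Rab genes encode small GTPases of the Ras superfamily that sit on the membranes of particular organelles. The 48 genes described here were every row of the deposited table of 12125 genes whose symbol is Rab followed by a number and at most 1 letter and 1 digit, so the rule used names and no measured value. All 48 are annotated as protein coding, and 38 of them passed a filter on low values that left 9966 genes to test. A Rab protein binds its membrane through attached lipids while it carries GTP and recruits effectors that move, tether or fuse vesicles. Exchange factors (GEFs) load it with GTP, GTPase-activating proteins (GAPs) end the active state, and escort and dissociation proteins carry it between membranes. In the kidney, this traffic is known for the uptake of filtered protein by the proximal tubule and for the cycling of channels and transporters at the surface of tubule cells.

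The study compared kidney cells of mice with and without a deletion of *Terf1* targeted to fibroblasts. This gene, called *Trf1* in the genotypes, encodes TRF1, a protein of the complex that caps telomeres. The 3 mice labelled *Trf1+/+* and the 3 labelled *Trf1flox/flox* carried a tamoxifen-activated Cre recombinase under the fibroblast promoter *Col1a2* (Col1a2-CreERT2) and a Katushka fluorescent protein (KFP) reporter that Cre switches on. Male and female mice received tamoxifen 3 times a week for 8 weeks, starting at an age of 6 to 8 weeks, so that the controls had both the Cre and the drug. For each library, 500 cells sorted from the kidney with CD29 and KFP antibodies were copied with oligo(dT) priming, amplified by PCR and sequenced without strand information. The cells came from a bulk sort, so fewer cells of a type and less RNA per cell cannot be told apart. Replicates are numbered 1 to 3 within each genotype in the order of their records, and these numbers pair no mice. No label states which library came from a male and which from a female.

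The targeted gene *Terf1* had normalized counts of 0.891, 253 and 235 under the *Trf1+/+* label and of 110.0, 7.65 and 12.4 under the *Trf1flox/flox* label. The value in the library labelled *Trf1+/+* replicate 1 came from 1 read and goes against its label. *Trf1flox/flox* replicate 1 held 128 reads of *Terf1*. This lay between the 305 and 238 of *Trf1+/+* replicates 2 and 3 and the 7 and 18 of the other *Trf1flox/flox* libraries. Its value thus does not clearly go with its label either, and the reason was not tested. All libraries are kept here as labelled. The normalized count is the number of reads of a gene divided by 1 size factor per library, and the libraries held 10263382 to 12248797 reads on the listed genes. Of the genes that averaged 100 normalized counts or more over the other 5 libraries, 12.9% had no read in the library labelled *Trf1+/+* replicate 1, and 9.01% had none in *Trf1flox/flox* replicate 2, against 0.932% to 3.68% in each of the other 4. Genes are called at the floor of a library below where it held 3 reads of them or fewer. Counting intervals below pool the reads of the libraries of a genotype and treat each read as independent. The reads carry no molecular identifiers, so floors and intervals do not cover PCR copies or differences between mice. The label names fibroblasts, but only 3 of 12 fibroblast markers were listed. They summed to 1.66 to 105 normalized counts in *Trf1+/+* and 15.5 to 102 in *Trf1flox/flox* libraries. *Col1a2*, the gene whose promoter drives the Cre, had normalized counts of 1.78, 1.66 and 0.985 under the *Trf1+/+* label and of 1.72, 1.09 and 0 under the *Trf1flox/flox* label. *Dcn* had 0, 0 and 93.6 under the *Trf1+/+* label and 0.859, 97.3 and 39.3 under the *Trf1flox/flox* label. *Fn1* lay between 0 and 12.9 in all 6 libraries. All 12 markers of the proximal tubule were listed and summed to 24873 to 107322 normalized counts in *Trf1+/+* and 24472 to 131371 in *Trf1flox/flox* libraries. The 8 markers of the loop and distal tubule summed to 92655 to 159139 and 72698 to 170563, the 8 of the collecting duct to 595 to 12237 and 1667 to 18554. The cells are therefore called sorted kidney cells here. The 5 listed immune markers of 10 summed to 279.8 to 1283 in *Trf1+/+* and 172 to 2574 in *Trf1flox/flox* libraries, and the 5 red blood cell markers to 238 to 10472 and 121 to 52403. The 1 listed endothelial marker of 8 stayed at 0.859 to 12.02 normalized counts, and 0 of 5 podocyte markers were listed. The part of these cell types in the results below was not tested.

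The sorted cells of every mouse held transcripts of Rab genes of each compartment of the pathway. Each library had a nonzero value for 39 to 46 of the 48 genes. Summed over the 48 genes, the libraries labelled *Trf1+/+* held 38570.1, 30042 and 22943 normalized counts and those labelled *Trf1flox/flox* held 26972, 25396 and 18780.0, with means of 30519 ± 7824 and 23716 ± 4347 (SD, n = 3). The sums of the genotypes overlapped, and they made up 0.206% to 0.354% of all normalized counts. Levels of different genes were set side by side per kilobase of exon, with the length taken over all annotated exons of a gene. Ranks thus depend on the annotation, as for *Rab14*, which had a mean of 3015 normalized counts but ranked 11 with 13589 bases of exon. On this scale, *Rab7* of late endosomes had the highest mean level over the 6 libraries with 957 (range 543 to 1510.1) normalized counts per kb. *Rab1a*, which acts between the endoplasmic reticulum (ER) and the Golgi, followed with 906 (range 613 to 2013), then *Rab11a* of recycling endosomes with 785 (range 474 to 1824). These ranges over libraries overlapped, and 12.7% of the 50-base stretches of *Rab7* also lie in other genes, most often a pseudogene of it, so its place above *Rab1a* is uncertain. Next came *Rab2a* of the ER and Golgi with 603 (range 362 to 1219.7), *Rab9* of late endosomes with 487 (range 212 to 887), 6.20% of whose stretches lie in other genes, and *Rab1b* with 427 (range 91.3 to 764) normalized counts per kb.

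**Figure D1:**
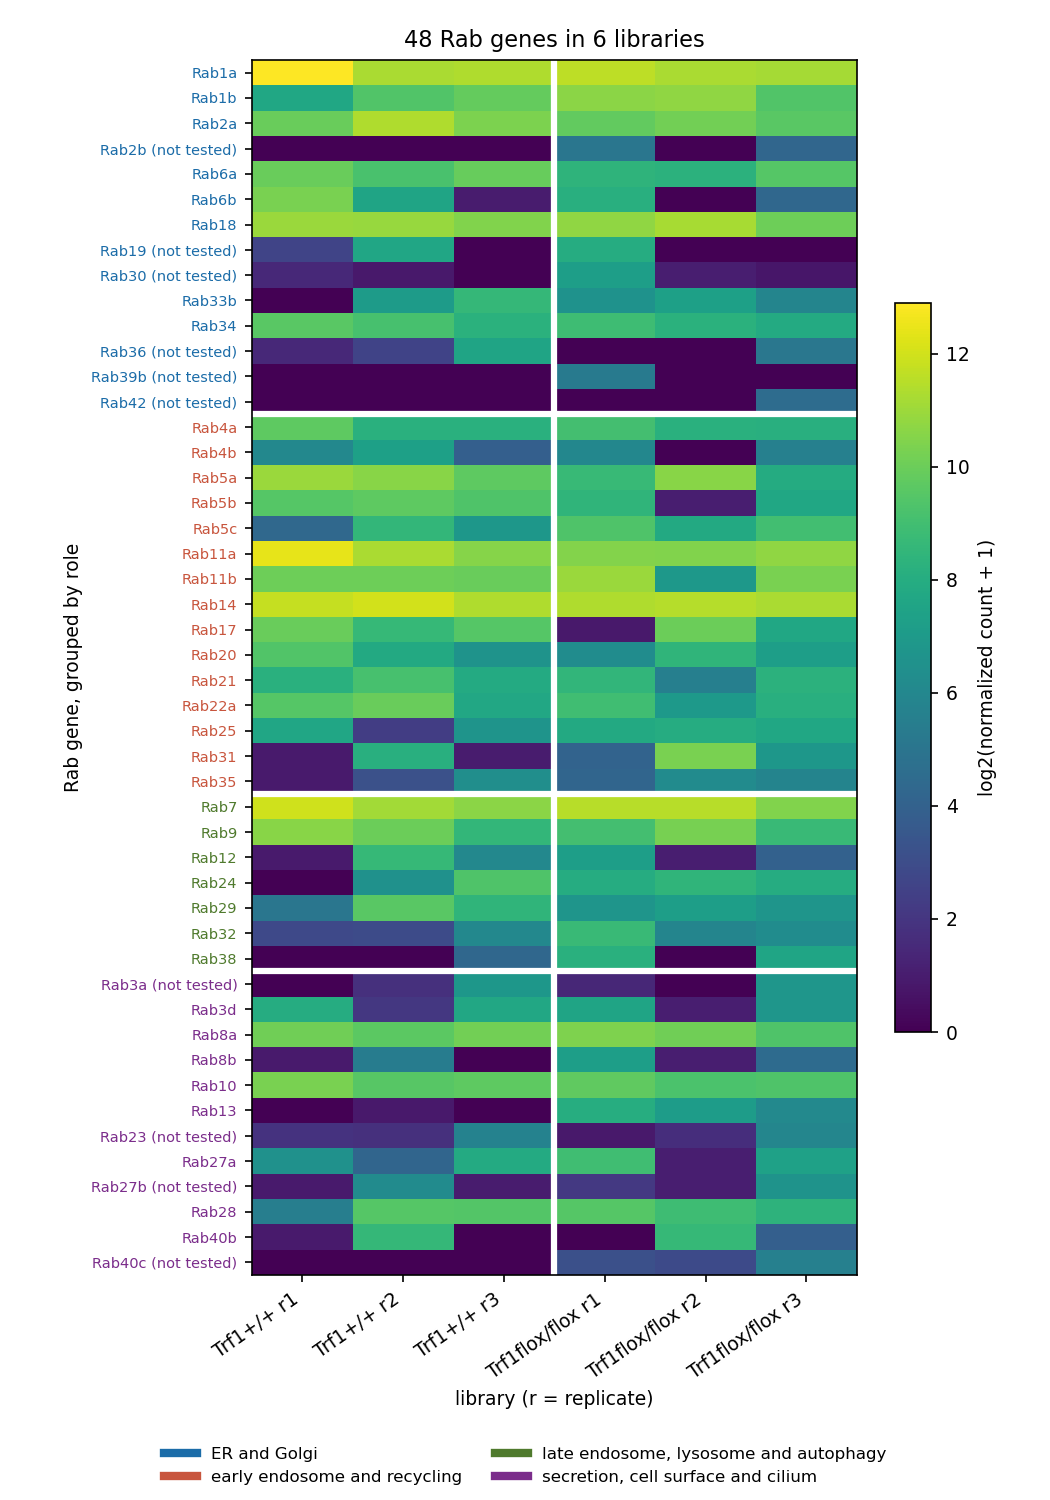
Heatmap of log2(normalized count + 1) for the 48 Rab genes (rows, grouped by role and colored by it) in the 6 libraries (columns). The rows of Rab1a, Rab7, Rab11a, Rab14 and Rab18 are bright in all 6 libraries, and the row of Rab13 is dark in the 3 libraries labelled Trf1+/+ and brighter in the 3 labelled Trf1flox/flox.

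Some members of the family had similar values across mice, whereas many others were present in some libraries and absent from others. *Rab14*, which acts between Golgi and endosomes, had normalized counts of 3455, 4106 and 2602 under the *Trf1+/+* label and of 2652, 2835 and 2438 under the *Trf1flox/flox* label, a 1.68-fold range and the only one under 2-fold among the 48 genes. *Rab10* and *Rab8a*, which bring vesicles to the cell surface, ranged over 2.08-fold and 2.10-fold. The ER and lipid droplet protein *Rab18* ranged over 2.21-fold and *Rab7* over 2.78-fold. In total, 23 Rab genes were above the floor in all 6 libraries and 25 were not, 16 of them with a value of 0 in at least 1 library. Absence from some libraries was not particular to the family. Above the floor in all 6 libraries were 60.5% of the tested Rab genes and 49.8% of all tested genes. Even among the 23, 7 ranged over more than 10-fold, up to 69.6-fold for *Rab32*. Of the tested Rab genes, 9 of 38 (23.7%) were at the floor in the library labelled *Trf1+/+* replicate 1, as were 8 (21.1%) in *Trf1flox/flox* replicate 2, compared with 34.4% and 19.96% of all tested genes. No tested Rab gene was at the floor in *Trf1flox/flox* replicate 3.

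Between the genotypes, 1 tested Rab gene was nearly absent from the libraries labelled *Trf1+/+* and present in those labelled *Trf1flox/flox*. It was *Rab13*, which directs proteins to tight junctions. *Rab25*, an epithelial member of the Rab11 subfamily, also had its 3 highest values in *Trf1flox/flox* mice, and *Rab5b* of early endosomes had its 3 lowest there. Differences were fitted on log2(normalized count + 1) with limma, and a log2 fold change is *Trf1flox/flox* over *Trf1+/+* on that scale. The added 1 understates changes of genes with low counts in a whole group, as for *Rab13* (6.80, against 8.94 in DESeq2). Where 1 library is at 0 or 1 read, the scale can instead enlarge a change. Examples are *Rab24* (2.85, against 0.21 in DESeq2), *Rab17* (-3.14 against -0.72) and *Rab5b* (-3.78 against -1.97). At an unadjusted p under 0.05, 1 tested Rab gene was higher (*Rab13*), in a table where 2.1% of all tested genes were, and 1 was lower (*Rab5b*), where 1.03% were. Groups did not overlap for 2 Rab genes that were higher (*Rab13* and *Rab25*), beside 5.35% of all tested genes, and for 1 that was lower (*Rab5b*), beside 3.33%. After Benjamini-Hochberg adjustment over the 9966 genes, 0 Rab genes passed in limma, as did 0% of all tested genes, and the smallest adjusted p of a Rab gene was 0.970. On the recovered reads, 1 Rab gene had an unadjusted p under 0.05 in edgeR and 1 in DESeq2, *Rab13* in both, and after adjustment 0 passed in edgeR and 1 in DESeq2. In the whole table, limma gave 312 genes an unadjusted p under 0.05, and 0 passed after adjustment in limma, 0 in edgeR and 58 in DESeq2. The filter can be passed through 1 group alone, as *Rab13* did, so these counts describe the tested genes and not all 48.

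Of the 38 tested Rab genes, 13 had a positive and 25 a negative log2 fold change (34.2% positive, against 55.9% of all tested genes). Their median was -0.39, whereas the median of all tested genes was 0.20. The latter became 0.37 when libraries were scaled to the same upper quartile, a shift of 0.18, and the Rab median was then -0.19. Without the library labelled *Trf1+/+* replicate 1 the Rab median was -0.12 and that of all genes was -0.028. Without *Trf1flox/flox* replicate 1, the other library whose *Terf1* value does not clearly go with its label, the Rab median was -0.41 and that of all genes was 0.17. Without *Trf1flox/flox* replicate 2 they were -0.068 and 0.34. In edgeR the median was -0.35 for the Rab genes and -0.045 for all tested genes, and in DESeq2 it was -0.38 and -0.052. The log2 fold change was smaller than its own standard error for 22 of the 38 genes and larger than 2 standard errors for 2. Replicates of a genotype differed by a median SD of 1.56 log2 units for the tested Rab genes and 2.17 for all tested genes.

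**Figure D2:**
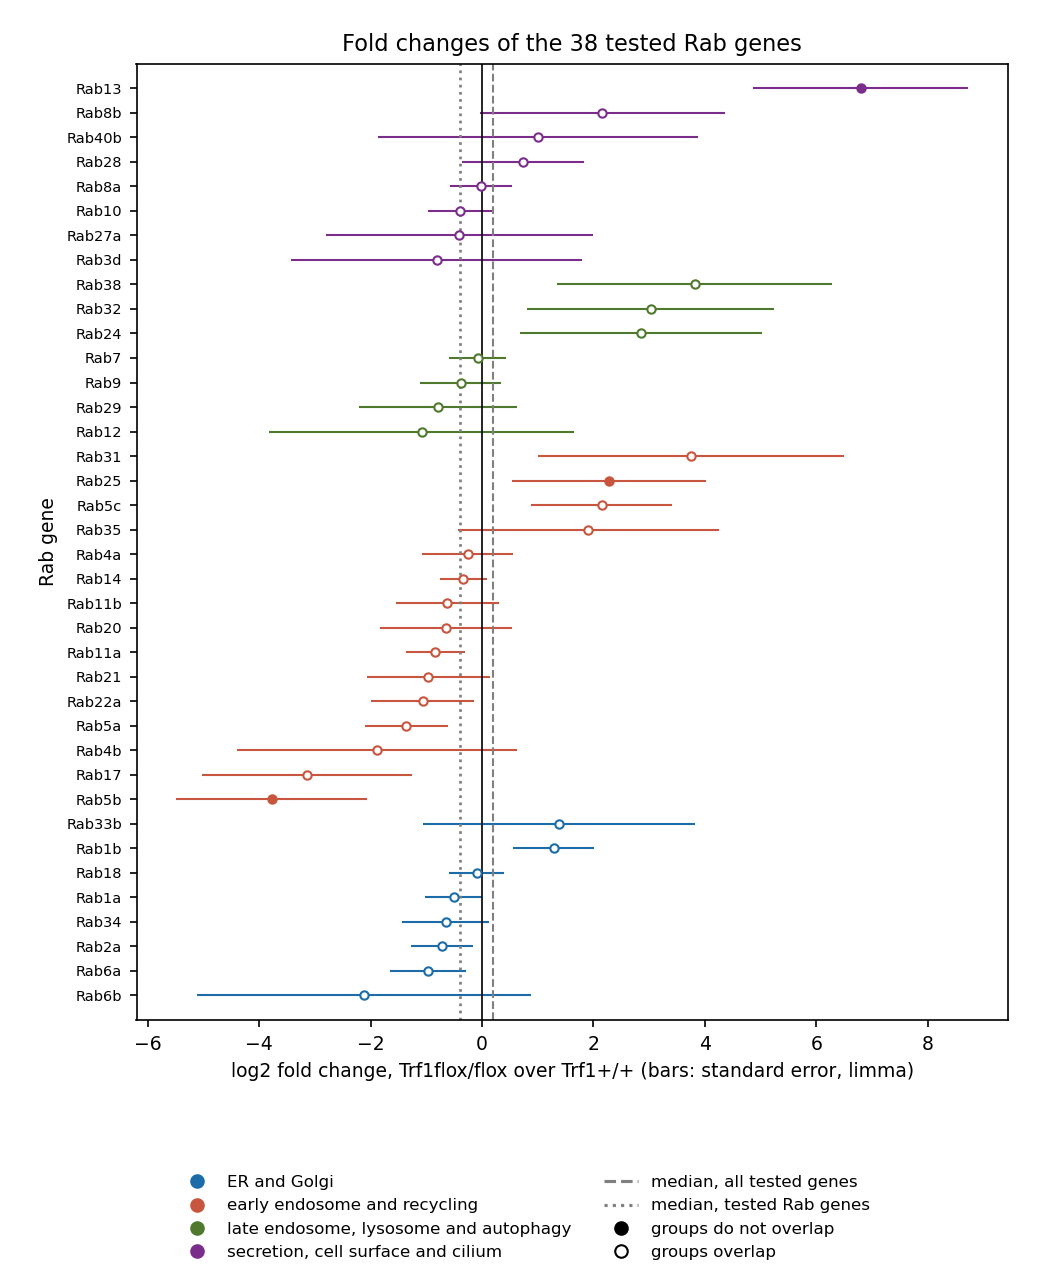
Log2 fold change (Trf1flox/flox over Trf1+/+, x axis) of the 38 tested Rab genes (y axis) with its standard error from limma, colored by role. Filled points are genes whose groups do not overlap, the dashed line is the median of all tested genes (0.20) and the dotted line that of the tested Rab genes (-0.39). Rab13 lies farthest to the right at 6.80 and Rab5b farthest to the left at -3.78.

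Among the 14 genes of the ER and Golgi, 8 were tested, of which 2 had a positive and 6 a negative log2 fold change, with a median of -0.58, and none had an unadjusted p under 0.05. *Rab1a* and *Rab1b* are close relatives that both act on vesicles between the ER and the Golgi. *Rab1a* (ENSMUSG00000020149, chr11:20201432-20226856 on GRCm38) had normalized counts of 7646, 2496 and 2649 under the *Trf1+/+* label and of 3104, 2417 and 2329 under the *Trf1flox/flox* label. The value in the library labelled *Trf1+/+* replicate 1 stood far above the rest, and the other 5 lay between 2329 and 3104. Its log2 fold change was -0.51 (standard error 0.51, unadjusted p = 0.334 from limma) and 0.013 without that library, so its sign rests on it, and -0.79 without *Trf1+/+* replicate 2. *Rab1b* (ENSMUSG00000024870, chr19:5099205-5107072) had normalized counts of 208, 684 and 908 under the *Trf1+/+* label and of 1621, 1735 and 668 under the *Trf1flox/flox* label. *Trf1flox/flox* replicates 1 and 2 held the highest values, and replicate 3 lay among those of *Trf1+/+* mice. For *Rab1b*, the fit gave a log2 fold change of 1.29 (standard error 0.72, unadjusted p = 0.101 from limma) and ranged from 0.65 (without the library labelled *Trf1+/+* replicate 1) to 1.73 (without *Trf1flox/flox* replicate 3) when 1 library was left out. Per kilobase, *Rab1b* made up 4.34, 31.4 and 36.4% of the sum of both genes in *Trf1+/+* and 46.6, 54.6 and 32.4% in *Trf1flox/flox* libraries, and these shares overlapped.

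The 24 coding bases over the P-loop, the stretch of the protein that wraps the phosphates of the nucleotide, are printed for both genes to show that their transcripts differ in sequence there. Capitals mark the 7 positions at which the pair differs, and the bases are those of the coding strand on GRCm38, at chr11:20215658-20215681 on the plus strand for *Rab1a* and chr19:5105199-5105222 on the minus strand for *Rab1b*.
Rab1a: ggCgaTtcTggGgtTggAaagtcC
Rab1b: ggTgaCtcCggCgtGggCaagtcG
The longest run of coding sequence that the pair shares is 38 bases, and the genes have no 50-base stretch of exon in common.

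The other tested ER and Golgi genes with lower values in *Trf1flox/flox* mice included *Rab2a* and *Rab6a*. *Rab2a*, which acts between ER and Golgi, had normalized counts of 1007, 2602 and 1316 under the *Trf1+/+* label and of 891, 1132 and 772 under the *Trf1flox/flox* label. *Trf1+/+* replicate 2 was the highest, and the groups overlapped. Fitted over all libraries, *Rab2a* gave a log2 fold change of -0.71 (standard error 0.56, unadjusted p = 0.223 from limma) and ranged from -1.01 (without the library labelled *Trf1+/+* replicate 1) to -0.32 (without *Trf1+/+* replicate 2) when 1 library was left out. *Rab6a*, which serves traffic back through the Golgi, had normalized counts of 997, 584 and 956 under the *Trf1+/+* label and of 333, 310.4 and 715 under the *Trf1flox/flox* label. Its lowest values were those of *Trf1flox/flox* replicates 1 and 2, with replicate 3 among the *Trf1+/+* values. The fitted log2 difference of *Rab6a* was -0.97 (standard error 0.68, unadjusted p = 0.178 from limma) and -0.83 without the library labelled *Trf1+/+* replicate 1, and ranged from -1.35 (without *Trf1flox/flox* replicate 3) to -0.75 (without *Trf1flox/flox* replicate 2) when 1 library was left out, and 18.97% of its 50-base stretches also lie in exons of other genes (most often *Mrpl48*, on the opposite strand), whose reads cannot be told apart from it in unstranded libraries. *Rab6b*, the form of Rab6 known from neurons, had normalized counts of 1262, 185 and 0.985 under the *Trf1+/+* label and of 285, 0 and 18.6 under the *Trf1flox/flox* label, with no pattern by genotype. *Rab18* was among the steadiest genes, with means of 1752 ± 324 in *Trf1+/+* and 1703 ± 643 in *Trf1flox/flox* mice (SD, n = 3). *Rab33b*, an autophagy factor of the Golgi, had no read in the library labelled *Trf1+/+* replicate 1 and lay between 57.9 and 379 in the other 5 libraries, but 21.2% of its stretches also lie in other genes, most often one on the opposite strand. *Rab34*, which acts on Golgi and cilia, ranged from 299 to 765 in *Trf1+/+* and from 236 to 472 in *Trf1flox/flox* libraries.

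The 15 genes of early and recycling endosomes were all tested, and 11 had a negative and 4 a positive log2 fold change, with a median of -0.65. The 3 Rab5 genes encode proteins that drive the fusion of early endosomes. *Rab5a* (ENSMUSG00000017831, chr17:53479234-53507680) had normalized counts of 1963, 1551 and 845 under the *Trf1+/+* label and of 406, 1545 and 240.5 under the *Trf1flox/flox* label. *Trf1flox/flox* replicates 1 and 3 lay below all *Trf1+/+* libraries and replicate 2 lay among them. The log2 fold change of *Rab5a* was -1.36 (standard error 0.75, unadjusted p = 0.0935 from limma) and -1.10 without the library labelled *Trf1+/+* replicate 1, and ranged from -2.13 (without *Trf1flox/flox* replicate 2) to -0.79 (without *Trf1flox/flox* replicate 3) when 1 library was left out. *Rab5b* (ENSMUSG00000000711, chr10:128677175-128696264) had normalized counts of 718, 839 and 646 under the *Trf1+/+* label and of 349.7, 1.09 and 205 under the *Trf1flox/flox* label. The groups did not overlap, but the value of *Trf1flox/flox* replicate 2 came from 1 read. For *Rab5b*, the fit gave a log2 fold change of -3.78 (standard error 1.71, unadjusted p = 0.0479 from limma) and -3.79 without the library labelled *Trf1+/+* replicate 1, and ranged from -5.14 (without *Trf1flox/flox* replicate 1) to -1.44 (without *Trf1flox/flox* replicate 2) when 1 library was left out. Its group means were 735 ± 97.5 in *Trf1+/+* and 185 ± 175 in *Trf1flox/flox* mice (SD, n = 3). *Rab5c* (ENSMUSG00000019173, chr11:100715009-100738215) had normalized counts of 19.6, 366 and 114 under the *Trf1+/+* label and of 644, 231 and 506 under the *Trf1flox/flox* label. The direction of its values was opposite to that of *Rab5a* and *Rab5b*, with *Trf1flox/flox* replicates 1 and 3 highest, the library labelled *Trf1+/+* replicate 1 lowest and the groups overlapping. Fitted over all libraries, *Rab5c* gave a log2 fold change of 2.15 (standard error 1.27, unadjusted p = 0.116 from limma) and ranged from 1.04 (without the library labelled *Trf1+/+* replicate 1) to 3.12 (without *Trf1+/+* replicate 2) when 1 library was left out.

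Because the 3 Rab5 proteins share a function, their levels were also set side by side per kilobase of exon. The sum of the 3 genes was 552, 661 and 366 normalized counts per kb in *Trf1+/+* and 454, 399 and 325 in *Trf1flox/flox* libraries, and the groups overlapped. *Rab5a* made up 67.4, 44.5 and 43.8% of it in *Trf1+/+* and 17.00, 73.6 and 14.03% in *Trf1flox/flox* libraries. *Rab5b* made up 30.9, 30.2 and 42.00% and 18.3, 0.0653 and 15.02%, all *Trf1flox/flox* shares being below all *Trf1+/+* shares. *Rab5c* made up 1.62, 25.3 and 14.2% and 64.7, 26.4 and 70.95%, all *Trf1flox/flox* shares being above all *Trf1+/+* shares, though the nearest pair was 26.4% and 25.3%. The shares of 3 genes in a sum depend on each other, and they were not tested. The same 24 coding bases of the P-loop are printed for the 3 genes, since a difference between relatives can be measured only where reads tell them apart. Capitals mark the 6 positions at which at least 1 of the 3 differs, on the coding strand of GRCm38, at chr17:53483991-53484014 on the plus strand for *Rab5a*, chr10:128686809-128686832 on the minus strand for *Rab5b* and chr11:100719976-100719999 on the minus strand for *Rab5c*.
Rab5a: ggAgagtctgcTgtTggCaaAtcA
Rab5b: ggAgagtctgcAgtGggGaaGtcT
Rab5c: ggCgagtctgcCgtGggCaaGtcC
The longest shared coding runs were 35 bases between *Rab5a* and *Rab5b*, 22 between *Rab5a* and *Rab5c* and 23 between *Rab5b* and *Rab5c*, and none of the 3 shares a 50-base stretch with another. However, 9.80% of the 50-base stretches of *Rab5b* also occur in other annotated genes (most often *Gm13991*), which makes its counts uncertain.

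**Figure D3:**
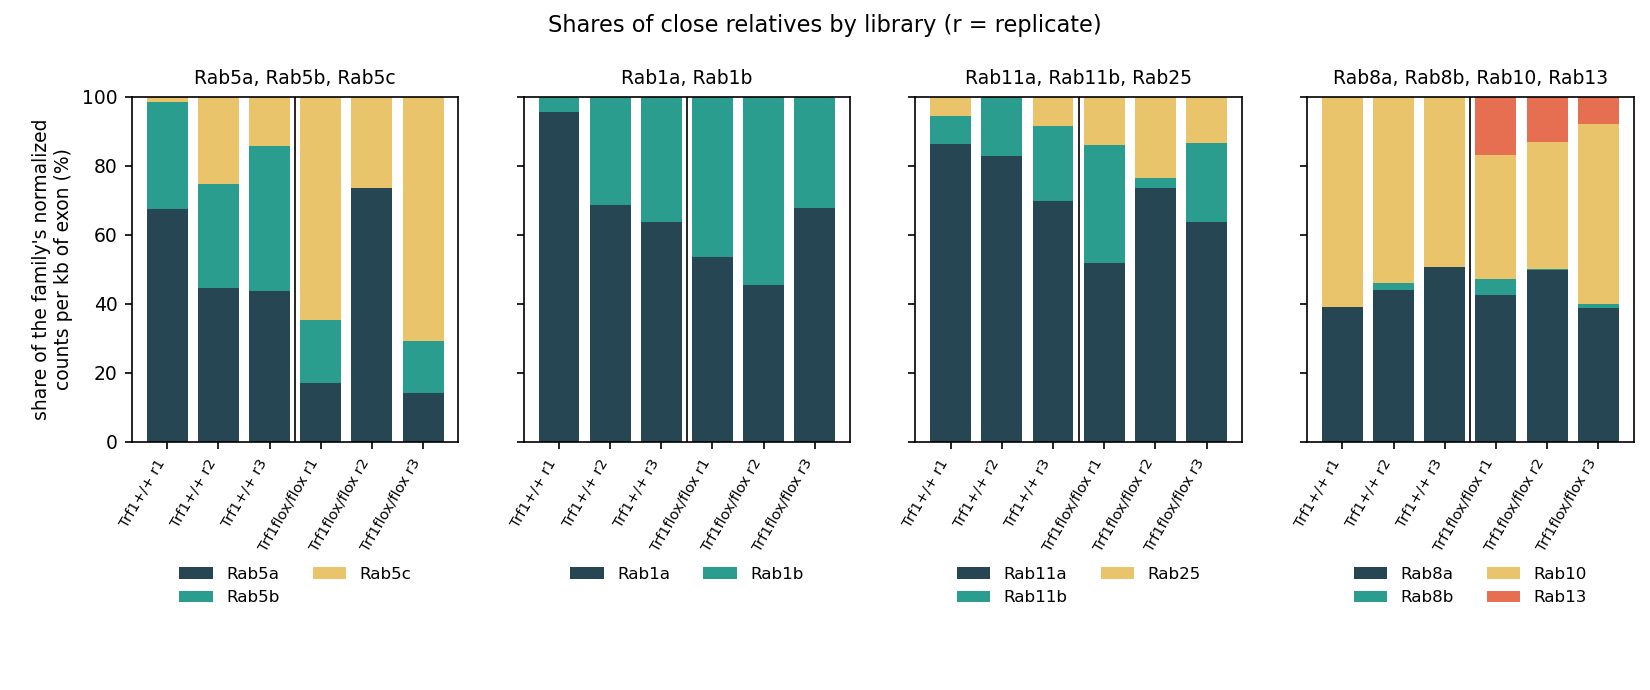
Stacked bars of the share (%, y axis, from 0) that each close relative takes of its family's summed normalized counts per kb of exon, in each of the 6 libraries (x axis), for the Rab5, Rab1, Rab11 and Rab8, Rab10 and Rab13 groups. Rab5c took 26.4% to 71.0% of the Rab5 sum in Trf1flox/flox and 1.62% to 25.3% in Trf1+/+ libraries, and Rab13 is visible in the right panel only in the Trf1flox/flox bars.

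Recycling endosomes depend on the Rab11 subfamily of *Rab11a*, *Rab11b* and *Rab25*. *Rab11a* (ENSMUSG00000004771, chr9:64715299-64737758) had normalized counts of 5456, 2497 and 1516 under the *Trf1+/+* label and of 1477, 1417 and 1735 under the *Trf1flox/flox* label. All *Trf1flox/flox* values lay below those of the library labelled *Trf1+/+* replicate 1 and *Trf1+/+* replicate 2, and *Trf1+/+* replicate 3 lay among them. The fitted log2 difference of *Rab11a* was -0.84 (standard error 0.53, unadjusted p = 0.145 from limma) and ranged from -1.26 (without *Trf1+/+* replicate 3) to -0.34 (without the library labelled *Trf1+/+* replicate 1) when 1 library was left out. *Rab11b* had normalized counts of 1059.9, 1051 and 975 under the *Trf1+/+* label and of 1998, 117 and 1268 under the *Trf1flox/flox* label, and *Trf1flox/flox* replicate 2 stood apart from the rest. Of its 50-base stretches 13.6% lie in some other gene, most often a pseudogene of it, which makes its counts uncertain. *Rab25* (ENSMUSG00000008601, chr3:88542029-88548300) had normalized counts of 199, 4.14 and 102 under the *Trf1+/+* label and of 225, 256 and 207 under the *Trf1flox/flox* label. The *Trf1flox/flox* values were close together and all above the *Trf1+/+* values, of which replicate 2 was far below the others. The group means were 102 ± 97.2 in *Trf1+/+* and 229 ± 24.7 in *Trf1flox/flox* mice (SD, n = 3). The log2 fold change of *Rab25* was 2.28 (standard error 1.74, unadjusted p = 0.217 from limma) and ranged from 0.67 (without *Trf1+/+* replicate 2) to 3.31 (without the library labelled *Trf1+/+* replicate 1) when 1 library was left out. The 8 collecting duct markers, genes of another epithelium of the kidney, summed to normalized counts of 6426, 12237 and 595 under the *Trf1+/+* label and of 18554, 6342 and 1667 under the *Trf1flox/flox* label, and of the 6 that were tested 3 had a positive and 3 a negative log2 fold change (median -0.017). The part of these cells in the values of *Rab25* was not tested.

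*Rab17*, an epithelial Rab of apical recycling and transcytosis (ENSMUSG00000026304, chr1:90958133-90969661), had normalized counts of 974, 399 and 714 under the *Trf1+/+* label and of 0.859, 1043 and 208 under the *Trf1flox/flox* label. The value of *Trf1flox/flox* replicate 1 came from 1 read, while replicate 2 held the highest value of all 6 libraries. For *Rab17*, the fit gave a log2 fold change of -3.14 (standard error 1.88, unadjusted p = 0.121 from limma) and -2.85 without the library labelled *Trf1+/+* replicate 1, and ranged from -5.05 (without *Trf1flox/flox* replicate 2) to -0.48 (without *Trf1flox/flox* replicate 1) when 1 library was left out. *Rab22a*, of early endosomes, had normalized counts of 719, 993 and 214 under the *Trf1+/+* label and of 497, 119 and 278 under the *Trf1flox/flox* label. The groups overlapped, and its log2 fold change was -1.07 (standard error 0.92, unadjusted p = 0.268 from limma) and -0.85 without the library labelled *Trf1+/+* replicate 1, and ranged from -1.73 (without *Trf1+/+* replicate 3) to -0.52 (without *Trf1flox/flox* replicate 2) when 1 library was left out. *Rab31*, a relative of *Rab22a* that links the Golgi to endosomes, had normalized counts of 0.891, 279 and 0.985 under the *Trf1+/+* label and of 16.3, 1271 and 114 under the *Trf1flox/flox* label. Single libraries of each genotype held most of its counts, *Trf1+/+* replicate 2 and *Trf1flox/flox* replicate 2. Fitted over all libraries, *Rab31* gave a log2 fold change of 3.75 (standard error 2.75, unadjusted p = 0.198 from limma) and 2.53 without the library labelled *Trf1+/+* replicate 1, and ranged from 2.14 (without *Trf1flox/flox* replicate 2) to 6.14 (without *Trf1+/+* replicate 2) when 1 library was left out. The remaining 7 early and recycling genes had fold changes smaller than their standard errors, from -1.88 for *Rab4b* to 1.91 for *Rab35*. *Rab4b* had normalized counts of 65.02, 161 and 13.8 under the *Trf1+/+* label and of 62.7, 0 and 48.2 under the *Trf1flox/flox* label, but 58.1% of its stretches lie in other genes. *Rab35*, of recycling and cell division, had normalized counts of 0.891, 8.29 and 81.8 under the *Trf1+/+* label and of 17.2, 74.3 and 55.1 under the *Trf1flox/flox* label. *Rab4a*, of fast recycling, had normalized counts of 817, 295 and 296 under the *Trf1+/+* label and of 519, 286 and 281 under the *Trf1flox/flox* label, and the groups overlapped. *Rab21*, which binds integrins, ranged from 234 to 573 in *Trf1+/+* and from 45.9 to 357 in *Trf1flox/flox* libraries, and *Rab20* from 99.5 to 684 and from 76.5 to 344, with 22.9% of the stretches of *Rab20* also in other genes, most often one on the opposite strand.

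**Figure D4:**
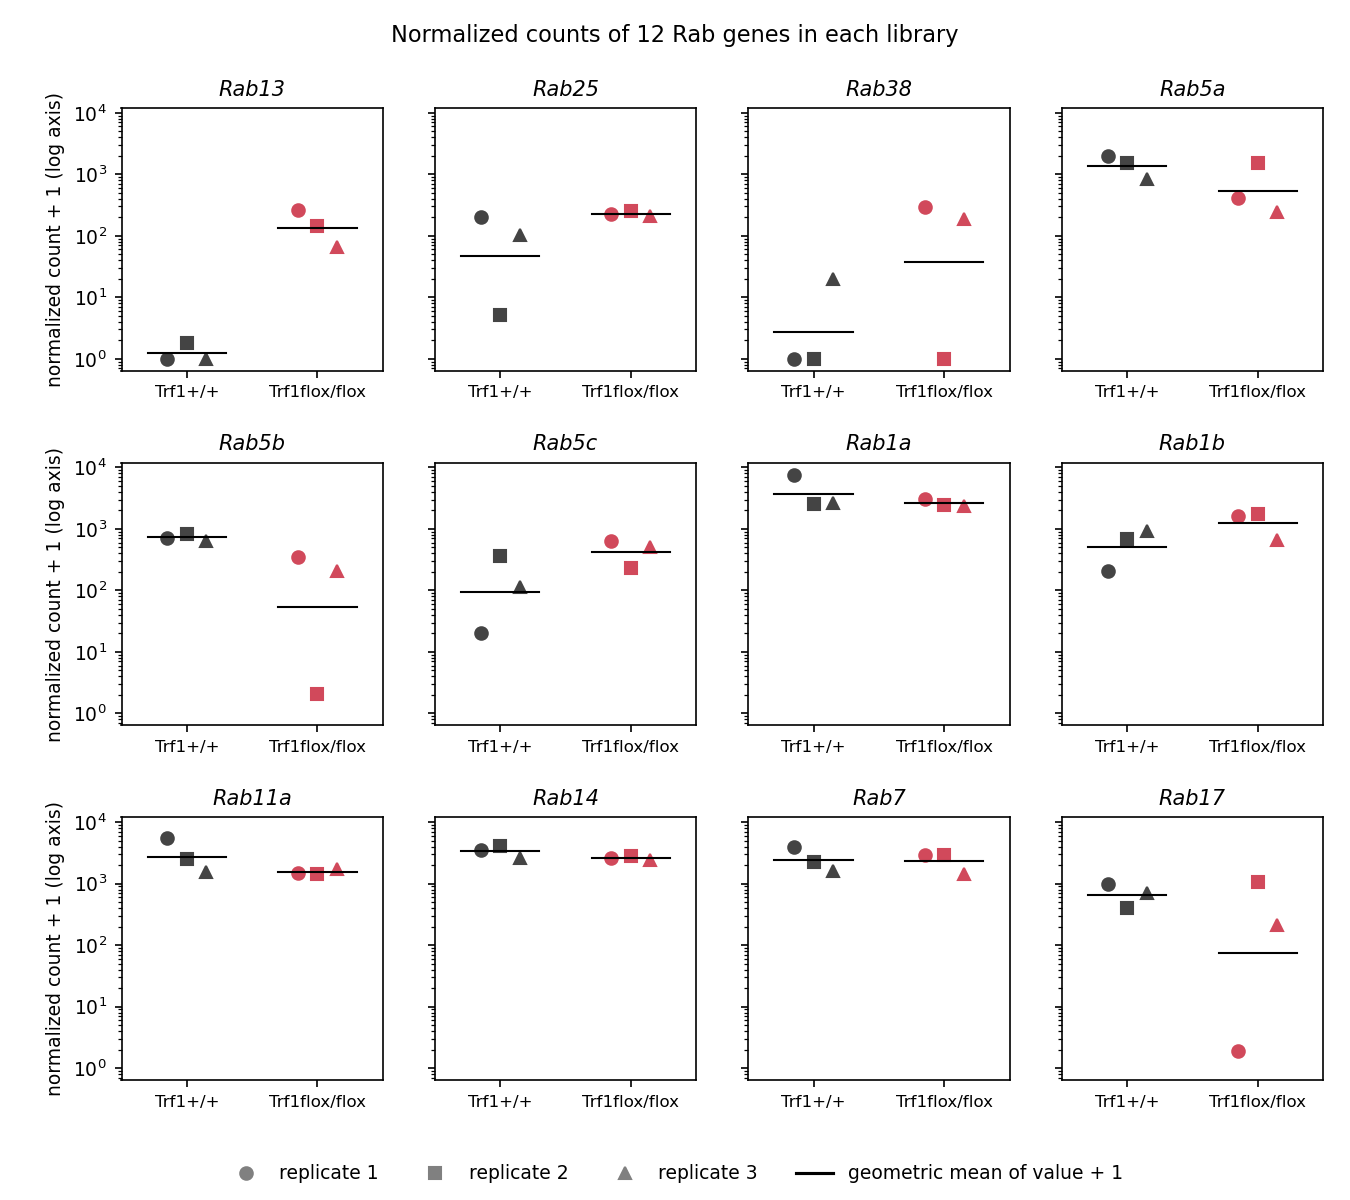
Normalized count + 1 (y axis, log scale) of 12 Rab genes in each library, by genotype (x axis), with a symbol for each replicate number and a line at the geometric mean. Rab13 and Rab25 are higher in all Trf1flox/flox libraries, Rab5b is lower in all of them with 1 point near the bottom, and Rab14 and Rab7 stay at a similar level in all 6 libraries.

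The 7 genes of late endosomes, lysosomes and autophagy were all tested, with 3 positive and 4 negative log2 fold changes, a median of -0.077 and none at an unadjusted p under 0.05. *Rab7*, which takes late endosomes to lysosomes, had normalized counts of 3941, 2224 and 1597 under the *Trf1+/+* label and of 2877, 2924 and 1417 under the *Trf1flox/flox* label. These values overlapped, with means of 2588 ± 1214 in *Trf1+/+* and 2406 ± 857 in *Trf1flox/flox* mice (SD, n = 3), and the fitted difference was -0.077 log2 units (standard error 0.51). *Rab9*, which returns receptors from late endosomes to the Golgi, ranged from 371 to 1551 in *Trf1+/+* and from 424 to 1203 in *Trf1flox/flox* libraries. *Rab32* and *Rab38* are relatives that build lysosome-related organelles. *Rab38* (ENSMUSG00000030559, chr7:88430273-88491572) had normalized counts of 0, 0 and 18.7 under the *Trf1+/+* label and of 291, 0 and 189 under the *Trf1flox/flox* label. It was thus present in *Trf1flox/flox* replicates 1 and 3 and at 0 in replicate 2 and in the libraries labelled *Trf1+/+* replicates 1 and 2. The fitted log2 difference of *Rab38* was 3.82 (standard error 2.47, unadjusted p = 0.148 from limma) and 3.10 without the library labelled *Trf1+/+* replicate 1, and ranged from 2.35 (without *Trf1flox/flox* replicate 1) to 6.45 (without *Trf1flox/flox* replicate 2) when 1 library was left out. *Rab32* had normalized counts of 6.23, 6.63 and 64.05 under the *Trf1+/+* label and of 434, 56.8 and 76.5 under the *Trf1flox/flox* label. *Trf1flox/flox* replicate 1 was the highest, and *Trf1+/+* replicate 3 lay between *Trf1flox/flox* replicates 2 and 3. The log2 fold change of *Rab32* was 3.03 (standard error 2.22, unadjusted p = 0.198 from limma) and 2.49 without the library labelled *Trf1+/+* replicate 1, and ranged from 2.13 (without *Trf1flox/flox* replicate 1) to 4.07 (without *Trf1+/+* replicate 3) when 1 library was left out. *Rab24*, an atypical Rab linked to autophagy, had normalized counts of 0, 91.1 and 639.5 under the *Trf1+/+* label and of 253, 345 and 250.1 under the *Trf1flox/flox* label. Its *Trf1+/+* values spanned those of *Trf1flox/flox* mice, and the log2 fold change was 2.85 (standard error 2.17, unadjusted p = 0.215 from limma) and ranged from 0.21 (without the library labelled *Trf1+/+* replicate 1) to 4.87 (without *Trf1+/+* replicate 3) when 1 library was left out. Of the 50-base stretches of *Rab24*, 49.6% are found elsewhere, most often in exons of *Prelid1* on the opposite strand, so its counts are uncertain.

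*Rab29*, which recruits the kinase *Lrrk2* to membranes, had normalized counts of 32.1, 767 and 345 under the *Trf1+/+* label and of 106, 148 and 107 under the *Trf1flox/flox* label. The *Trf1flox/flox* values were close together, with the library labelled *Trf1+/+* replicate 1 below and the other *Trf1+/+* libraries above them. Its log2 fold change was -0.79 (standard error 1.42), -2.11 without the library labelled *Trf1+/+* replicate 1 and up to 0.16 when another library was left out. *Rab12*, a substrate of *Lrrk2*, had normalized counts of 0.891, 402 and 63.1 under the *Trf1+/+* label and of 150.4, 1.09 and 15.2 under the *Trf1flox/flox* label, and 1 library of each genotype was at 1 read.

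The 12 genes of secretion, the cell surface and the cilium had 8 tested members, 4 with a positive and 4 with a negative log2 fold change and a median of 0.36. *Rab13* (ENSMUSG00000027935, chr3:90213695-90226385) had normalized counts of 0, 0.829 and 0 under the *Trf1+/+* label and of 266, 141 and 65.5 under the *Trf1flox/flox* label. The libraries labelled *Trf1+/+* held 1 read in all, those labelled *Trf1flox/flox* held 534, and the lowest *Trf1flox/flox* library was above every *Trf1+/+* library. The ratio of *Trf1flox/flox* to *Trf1+/+* reads, scaled by the size factors, was 506 with an exact 95% counting interval of 90.4 to 20020. For *Rab13*, the fit gave a log2 fold change of 6.80 (standard error 1.93, unadjusted p = 0.00432 from limma), with an adjusted p = 0.970 from limma and 0.00825 from DESeq2 (0.00825 to 0.9996 over the 14 alternatives). Leaving out the library labelled *Trf1+/+* replicate 1 gave 6.65, and leaving out any 1 library gave 6.31 to 7.32. *Rab13* shares no 50-base stretch with another annotated gene. It passed the filter on low values through the *Trf1flox/flox* libraries alone, so a difference was built into its being tested. Among the 5 listed immune markers, the T cell gene *Trac* had normalized counts of 0, 0 and 0 under the *Trf1+/+* label and of 172, 216 and 61.3 under the *Trf1flox/flox* label, and it was the only one of them whose groups did not overlap. The others did not follow that order, since *Cd74* had normalized counts of 317, 903 and 0 under the *Trf1+/+* label and of 0, 77.6 and 2513 under the *Trf1flox/flox* label, *Csf1r* had normalized counts of 0, 2.49 and 279.8 under the *Trf1+/+* label and of 0, 260.1 and 0 under the *Trf1flox/flox* label, *Lyz2* was above 0 in *Trf1+/+* replicate 2 alone (377) and *C1qb* was at 0 in every library. Of the 8 loop and distal tubule markers, 4 had a positive and 4 a negative log2 fold change (median -0.091). *Slc12a3* and *Calb1* were lower in all *Trf1flox/flox* libraries, and the groups of the other 6 overlapped, as for *Slc12a1* with normalized counts of 1641, 11079.6 and 7646 under the *Trf1+/+* label and of 26372, 12964 and 4250.4 under the *Trf1flox/flox* label. All 12 proximal tubule markers were tested, and 10 had a positive and 2 a negative log2 fold change. Their median was 0.68, against 0.20 for all tested genes, and the groups of each of them overlapped. The part of any of these cell types in the values of *Rab13* was not tested.

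The nearest relatives of *Rab13* did not have its pattern of values. *Rab8a*, which brings vesicles to the surface and the cilium, had normalized counts of 1082, 804 and 1147 under the *Trf1+/+* label and of 1364, 1091 and 648 under the *Trf1flox/flox* label, which is a log2 fold change of -0.016 (standard error 0.56). *Rab10*, which acts in basolateral and glucose transporter traffic, had normalized counts of 1267, 742 and 839.5 under the *Trf1+/+* label and of 869, 608 and 656 under the *Trf1flox/flox* label, which is a log2 fold change of -0.40 (standard error 0.58). *Rab8b* was low and scattered, with normalized counts of 0.891, 41.4 and 0 under the *Trf1+/+* label and of 148, 1.09 and 22.1 under the *Trf1flox/flox* label, and 5.46% of its stretches lie in other genes. Of the sum of *Rab8a*, *Rab8b*, *Rab10* and *Rab13* per kilobase, *Rab13* made up 0, 0.0919 and 0% in *Trf1+/+* and 16.9, 13.1 and 7.94% in *Trf1flox/flox* libraries. Differences between the fold changes of these genes were not tested. *Rab27a*, which docks secretory vesicles, had normalized counts of 91.7, 17.4 and 238 under the *Trf1+/+* label and of 496, 1.09 and 168 under the *Trf1flox/flox* label, and *Rab3d* of regulated exocytosis had normalized counts of 251, 3.31 and 215 under the *Trf1+/+* label and of 184, 1.09 and 110.3 under the *Trf1flox/flox* label. Both were near 1 normalized count in *Trf1flox/flox* replicate 2 and overlapped between genotypes. *Rab28*, of cilia, had 44.5 normalized counts in the library labelled *Trf1+/+* replicate 1 and 318 to 735 in the other 5. *Rab40b*, part of a ubiquitin ligase, exceeded 14 normalized counts only in *Trf1+/+* replicate 2 (389) and *Trf1flox/flox* replicate 2 (402).

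The 10 Rab genes that did not pass the filter were each above the floor in 1 to 3 libraries. *Rab40c*, a relative of *Rab40b*, was at 0 in each library labelled *Trf1+/+* and had 7.73, 6.56 and 48.9 normalized counts in those labelled *Trf1flox/flox*, at least 7.79-fold higher when the *Trf1+/+* libraries are set to 3 reads each. It was the only untested Rab gene whose groups did not overlap, and the share of such genes among all untested genes was not counted. Without the filter its unadjusted p was 0.0199 and its adjusted p 0.953 from limma. In that fit 397 of all 12125 genes had an unadjusted p under 0.05. *Rab2b* was likewise unseen under the *Trf1+/+* label and had 32.7, 0 and 17.9 normalized counts under the *Trf1flox/flox* label, at least 6.23-fold higher by the same floor, but 57.0% of its stretches lie in other genes. *Rab39b* and *Rab42* were each seen in 1 *Trf1flox/flox* library, at 38.7 in replicate 1 and 22.7 in replicate 3, at least 4.77-fold and 2.80-fold higher, though 16.2% of the stretches of *Rab39b* lie in other genes. *Rab30*, of the Golgi, had normalized counts of 1.78, 0.829 and 0 under the *Trf1+/+* label and of 149, 1.09 and 0.689 under the *Trf1flox/flox* label, which is 3 reads against 175 and a ratio of 55.3 with an exact 95% counting interval of 18.6 to 271, and 173 of the 175 reads came from *Trf1flox/flox* replicate 1. The remaining 5 were seen in both genotypes. The Golgi proteins *Rab19* and *Rab36* had normalized counts of 5.34, 199 and 0 under the *Trf1+/+* label and of 250.0, 0 and 0 under the *Trf1flox/flox* label, and normalized counts of 1.78, 4.97 and 186 under the *Trf1+/+* label and of 0, 0 and 33.8 under the *Trf1flox/flox* label, respectively. The synaptic vesicle protein *Rab3a* had normalized counts of 0, 2.49 and 114 under the *Trf1+/+* label and of 1.72, 0 and 108 under the *Trf1flox/flox* label. *Rab23*, a regulator of Hedgehog signaling, had normalized counts of 2.67, 2.49 and 52.2 under the *Trf1+/+* label and of 0.859, 2.19 and 60.6 under the *Trf1flox/flox* label, and *Rab27b*, a partner of *Rab27a* in secretion, had normalized counts of 0.891, 72.9 and 0.985 under the *Trf1+/+* label and of 3.44, 1.09 and 98.5 under the *Trf1flox/flox* label.

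Rab proteins work only with the proteins that load, unload and read them, so 145 listed regulators and effectors were set beside the family. Lipid attachment and membrane recycling genes numbered 10, all tested, with 6 positive and 4 negative log2 fold changes and a median of 0.23. Of the GEFs, 37 of 43 listed were tested, with 23 positive and 14 negative and a median of 0.27. The GAPs had 25 of 36 tested, 16 positive and 9 negative, with a median of 0.50, and the effectors 49 of 53, 31 positive and 18 negative, with a median of 0.57. The median of all tested genes was 0.20. At an unadjusted p under 0.05, 1 GEF and 2 effectors were higher (2.1% of all tested genes were) and 1 GAP and 1 effector were lower (1.03% were), and none passed after adjustment in limma, where every one of them had an adjusted p of 0.970. *Wdr44*, an effector that binds Rab11, had normalized counts of 0, 0 and 3.94 under the *Trf1+/+* label and of 54.1, 95.1 and 76.5 under the *Trf1flox/flox* label. The groups did not overlap, and its log2 fold change was 5.45 (standard error 1.87, unadjusted p = 0.0133 from limma). *Mical3*, an effector of the Rab8 group that was named after its values were seen, had normalized counts of 0, 3.31 and 9.85 under the *Trf1+/+* label and of 112, 222 and 61.3 under the *Trf1flox/flox* label, with a log2 fold change of 5.01 (standard error 2.21, unadjusted p = 0.0428 from limma). Both *Wdr44* and *Mical3* passed the filter through the *Trf1flox/flox* libraries alone. *Ankrd27*, an exchange factor for *Rab21* that also binds *Rab32* and *Rab38*, had normalized counts of 0, 19.1 and 9.85 under the *Trf1+/+* label and of 678, 217 and 64.8 under the *Trf1flox/flox* label, again without overlap (log2 fold change 5.15, standard error 2.34, unadjusted p = 0.0484 from limma). *Exoc6*, a subunit of the exocyst that Rab11 recruits, had normalized counts of 1618, 328 and 475 under the *Trf1+/+* label and of 264, 21.9 and 179.9 under the *Trf1flox/flox* label. All *Trf1flox/flox* values were lower, with a log2 fold change of -2.62 (standard error 1.18, unadjusted p = 0.0462 from limma).

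Among the other genes with the smallest p in each list and direction, the GAP list held *Tbc1d14*, a negative regulator of autophagy that binds Rab11, with normalized counts of 292, 802 and 777 under the *Trf1+/+* label and of 0.859, 53.5 and 416 under the *Trf1flox/flox* label. Its groups overlapped, and the log2 fold change was -4.03 (standard error 1.84, unadjusted p = 0.0494 from limma). *Tbc1d10a*, a GAP for *Rab27a* and *Rab35*, had normalized counts of 0, 0 and 251 under the *Trf1+/+* label and of 171, 283 and 159 under the *Trf1flox/flox* label (log2 fold change 4.97, standard error 2.64, unadjusted p = 0.0849 from limma). *Ccz1*, a subunit of the exchange factor of *Rab7*, had normalized counts of 496, 339.7 and 371 under the *Trf1+/+* label and of 35.2, 44.8 and 502 under the *Trf1flox/flox* label (log2 fold change -2.08, standard error 1.26, unadjusted p = 0.126 from limma). *Rabif*, which binds Rab proteins without nucleotide, had normalized counts of 84.6, 676 and 334 under the *Trf1+/+* label and of 0, 1206 and 256 under the *Trf1flox/flox* label (log2 fold change -1.99, standard error 2.27, unadjusted p = 0.399 from limma). Its fold change ranged from -4.07 to 1.05 when 1 library was left out. *Arl6ip5*, which binds prenylated Rab proteins, had normalized counts of 0.891, 259 and 324 under the *Trf1+/+* label and of 304, 646 and 156 under the *Trf1flox/flox* label (log2 fold change 2.53, standard error 1.95, unadjusted p = 0.218 from limma). *Lrrk2*, a kinase of *Rab8a*, *Rab10* and others, was 1 of 2 tested kinases and phosphatases of the 3 listed, both with positive fold changes. It had normalized counts of 32.1, 24.03 and 445 under the *Trf1+/+* label and of 445, 341 and 374 under the *Trf1flox/flox* label, and *Trf1+/+* replicate 3 lay with the *Trf1flox/flox* libraries (log2 fold change 2.43, standard error 1.37, unadjusted p = 0.103 from limma).

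The direction of the fold change stayed the same in all 14 alternative settings for 21 of the 38 tested Rab genes, 10 positive and 11 negative, and changed sign in at least 1 for the other 17. With *Trf1flox/flox* replicate 2 left out, 4 Rab genes had an unadjusted p under 0.05 in limma, with *Rab13* and *Rab38* higher and *Rab5a* and *Rab17* lower. In that fit 227 of all 9966 tested genes were past this limit. Without the library labelled *Trf1+/+* replicate 1 the count was 1, *Rab13*, beside 327 of all tested genes. Without *Trf1+/+* replicate 2, *Rab5c* joined *Rab13* (438 of all tested genes), and without *Trf1+/+* replicate 3, *Rab11a* did (650). *Rab5b* was past this limit without *Trf1flox/flox* replicate 1 (226 of all tested genes) or 3 (283). *Rab13* was at an unadjusted p under 0.05 in the fit of all libraries and in each of the 14 alternatives. These settings reuse the same libraries and, apart from the setting with no filter, test *Rab13* because of its *Trf1flox/flox* values alone, so their repetition gives no independent support.

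**Figure D5:**
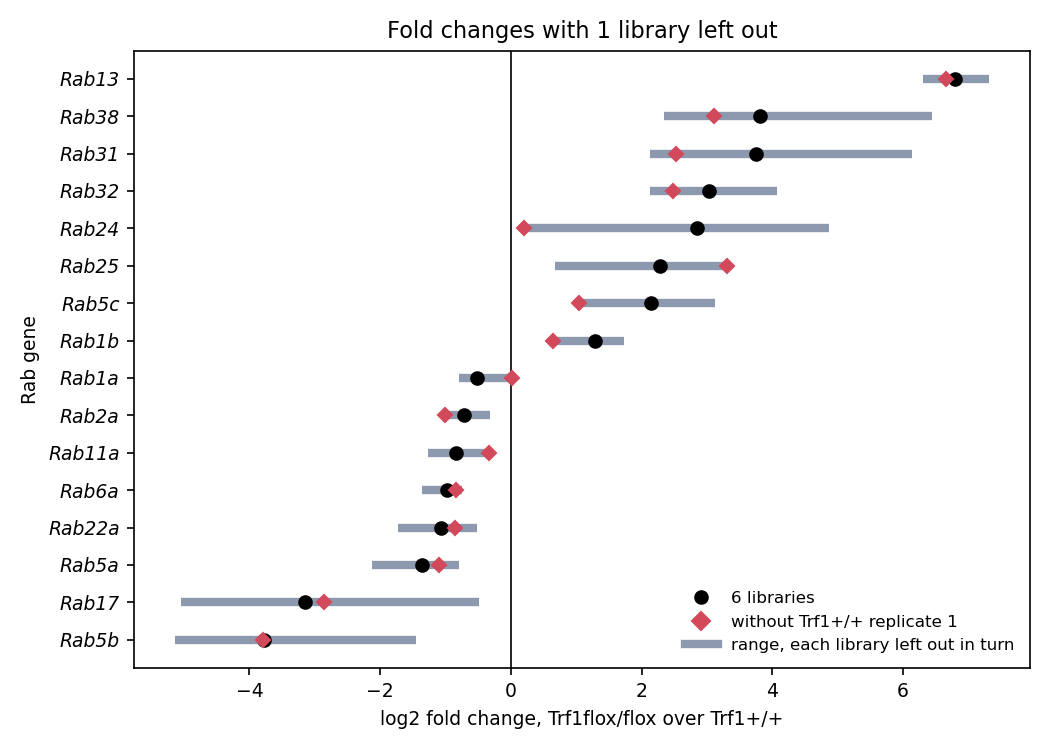
Log2 fold change (Trf1flox/flox over Trf1+/+, x axis) of the 16 Rab genes described with full statistics (y axis), for all 6 libraries (circles), without the library labelled Trf1+/+ replicate 1 (diamonds) and as the range over fits that each lack 1 library (bars). The bar of Rab13 runs from 6.31 to 7.32, that of Rab24 from 0.21 to 4.87 and that of Rab5b from -5.14 to -1.44, and the bar of Rab1a reaches past 0 to 0.013.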

How the data were processed

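Bulk RNA-seq was described for 6 libraries, 3 per genotype, grouped by the genotype in their labels. According to the study's methods, the authors used GRCm38 with GENCODE annotation, while the submitters' processing notes name GRCm39, TopHat2 2.0.10, Bowtie 1.0.0, SAMtools 0.1.19, HTSeq 0.6.1 and DESeq2, so the build is uncertain. Coordinates, exon lengths and shared 50-base stretches are those of GENCODE vM21 (release 21) on GRCm38. The authors deposited normalized counts (a signal that is the gene's count divided by 1 size factor per library), and 100% of the values were whole multiples of the value of 1 read, within 0.01 of a read, so reads were recovered. A read was worth 0.689 to 1.09 normalized counts, and the libraries held 10263382 to 12248797 reads on the 12125 listed genes. No column was left unused.

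Genes that reached 10 normalized counts in 3 or more libraries were fitted on log2(value + 1) with limma 3.58.1 (empirical Bayes with a trend, 3 against 3 libraries, two-sided) in R 4.3.3, with Benjamini-Hochberg adjustment over all 9966 genes. Alternatives were edgeR 4.0.16 and DESeq2 1.42.0 on the recovered reads, upper quartile scaling, no trend, pseudocounts of 0.5 and 10, no filter and leaving out libraries. The fits were also run on simulated reads. The simulated replicates were set to differ far less than these libraries do, so that run does not measure the errors of the fits here. The labels do not say whether mice were littermates or processed together, and p-values measure the spread between these libraries only. Fold changes, errors and p are given for the 8 tested Rab genes with the smallest p in each direction and those whose groups do not overlap, and for regulators the gene with the smallest p in each direction of each list. The gene family and all lists were chosen with earlier results of these data known.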

Additional observations from a re-analysis of the deposited data

How the results depend on the processing

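The count of Rab genes at an unadjusted p under 0.05 (2 with limma) was 1 with upper quartile scaling, edgeR, DESeq2, limma without trend or a pseudocount of 0.5, and 4 without both libraries with the most genes at 0 (*Rab13* and *Rab38* higher, *Rab5a* and *Rab29* lower). Leaving out any 1 library gave 1 to 4. Of all 9966 tested genes, 312 were at this limit with limma and 300 with upper quartile scaling. The count over all tested genes was 196 in edgeR, 410 in DESeq2, 454 without trend and 296 with a pseudocount of 0.5. It was 286 without both libraries and 226 to 650 with any 1 library left out. The count at an adjusted p under 0.05 was 1 with DESeq2, where *Rab13* had a log2 fold change of 8.94, and 0 in the other 13 alternatives. Over all tested genes DESeq2 called 58 and the other 13 alternatives 0. The Rab median was -0.48 to -0.068 when 1 library was left out and -0.047 without both libraries. The median of all tested genes was -0.028 to 0.34 and 0.073 in these settings. *Rab1a* turned positive without the library labelled *Trf1+/+* replicate 1 (0.013) and without both libraries (0.064), and lay between -0.79 and 0.013 over the fits that lack 1 library. The causes were not tested. Over the 14 alternatives, the smallest adjusted p of a Rab gene ranged from 0.00825 (DESeq2) to 0.9996, and it was 0.110 in limma without trend. The other alternatives kept the direction of the 16 genes described in full. No paired analysis was possible because the labels give no replicate numbers. With 500 cells and PCR copies without molecular identifiers, values of a few reads limit what can be read from 25 of the 48 genes.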
